A study of Mus musculus with 2 samples.

Results

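In all, 10 genes of cytokine feedback and survival were followed in haematopoietic stem and progenitor cells: Socs1, Socs2, Socs3, Socs4, Socs5, Socs6, Socs7, Cish, Pim1 and Pim2. They were taken by symbol as 10 of the 39017 genes in the deposited count table. Each of the 10 reached 20 counts over the 2 libraries together, the minimum for giving a ratio, as did 13880 genes in all, which are called measured here. The cells were Lin- Sca-1+ c-Kit+ (LSK) bone marrow cells, the fraction that holds stem cells and multipotent progenitors. Marrow of 12 wild-type (WT) mice was pooled for 1 library, and that of 6 miR-146a-/- mice for the other. Every animal was on the C57BL/6J background and 10 to 14 weeks old. The labels used here state neither how the miR-146a-/- allele was made nor the sex of the animals. With 1 pooled library per genotype no difference below has a replicate check, no p-value is given, and each statement compares 2 libraries.

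Cytokine receptors without a kinase domain of their own use Janus kinases (JAKs) to phosphorylate STAT transcription factors, which then enter the nucleus and switch on target genes. Cish, Socs1, Socs2 and Socs3 are among those targets. Proteins of the SOCS family bind phosphorylated receptors or kinases through an SH2 domain and recruit a ubiquitin ligase through a SOCS box. For the members that STAT factors induce, this closes a negative feedback loop. SOCS1 and SOCS3 can also block the kinase directly. Pim1 and Pim2 encode serine/threonine kinases that are active as made, so that the amount of protein sets the activity, and they support survival and growth of blood cells downstream of the same receptors. miR-146a is induced by NF-kB and represses adaptors of Toll-like and interleukin-1 receptor signalling.

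RefSeq promoter windows (GRCm38.p6, 250 bases before to 50 after an annotated start) were given for 6 of the 10 genes, in 7 windows, as Pim1 has 2. The windows of Socs3 (chr11:117969317-117969616, minus strand), Cish (chr9:107296409-107296708, plus strand), Socs1 (chr16:10785487-10785786, minus strand) and the first of Pim1 (chr17:29490535-29490834, plus strand) are shown because these genes are known STAT targets and include both that were called higher by the rule given below (Socs3 and Pim1) and 2 that were not. Each runs 5′ to 3′ on the gene's strand. Capitals mark TTCNNNGAA, the palindrome that most STAT dimers bind, in Socs3 and Cish. In Socs1 they mark a motif of interferon regulatory factors, 2 copies of GAAA with 2 bases between them, which was chosen after the values were seen.
Socs3: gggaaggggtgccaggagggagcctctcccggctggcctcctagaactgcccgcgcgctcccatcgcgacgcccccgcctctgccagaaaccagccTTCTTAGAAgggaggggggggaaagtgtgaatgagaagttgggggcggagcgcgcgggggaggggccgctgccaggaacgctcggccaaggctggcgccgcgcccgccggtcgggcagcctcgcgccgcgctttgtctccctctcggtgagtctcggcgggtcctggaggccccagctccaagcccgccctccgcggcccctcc
Cish: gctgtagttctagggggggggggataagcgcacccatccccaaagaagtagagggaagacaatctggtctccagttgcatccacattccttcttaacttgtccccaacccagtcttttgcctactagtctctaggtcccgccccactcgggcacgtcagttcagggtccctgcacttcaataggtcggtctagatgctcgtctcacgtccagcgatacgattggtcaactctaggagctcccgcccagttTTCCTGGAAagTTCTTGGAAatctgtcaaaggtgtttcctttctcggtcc
Socs1: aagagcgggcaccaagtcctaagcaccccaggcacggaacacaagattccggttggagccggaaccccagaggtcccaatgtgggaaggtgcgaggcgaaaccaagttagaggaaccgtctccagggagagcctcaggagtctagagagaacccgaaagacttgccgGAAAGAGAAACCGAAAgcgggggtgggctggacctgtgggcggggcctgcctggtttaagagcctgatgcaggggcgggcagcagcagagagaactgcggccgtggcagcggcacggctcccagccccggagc
Pim1: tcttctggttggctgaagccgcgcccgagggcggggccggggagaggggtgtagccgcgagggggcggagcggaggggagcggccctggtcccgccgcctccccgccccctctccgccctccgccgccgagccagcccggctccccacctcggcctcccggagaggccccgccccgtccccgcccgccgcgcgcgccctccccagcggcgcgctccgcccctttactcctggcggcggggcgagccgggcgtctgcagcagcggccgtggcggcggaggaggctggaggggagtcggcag

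TTCNNNGAA occurred at 1 place in the Socs3 window, as TTCTTAGAA at chr11:117969512-117969520, 154 bases before the annotated start. The Cish window held it at 2 places, TTCCTGGAA at chr9:107296659-107296667 and TTCTTGGAA at chr9:107296670-107296678, in the first 20 bases after the start. It was in 0 of the windows of Socs1, Socs4, Pim1 and Pim2. Over all 32851 promoter windows 8.30% held at least 1 match and 0.457% held 2 or more. The Socs1 window held 2 overlapping matches to the interferon regulatory factor motif, GAAAGAGAAA and GAAACCGAAA, at chr16:10785604-10785619, where 3.44% of all windows held at least 1. The form with 4 bases between TTC and GAA, which STAT6 prefers (in 6.95% of all windows), and the NF-kB consensus (in 8.46%) were in none of the 7 windows. All motifs were read on both strands. A match is a description of letters, and these libraries do not show whether any factor bound there.

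Several properties of the libraries move with genotype. Total counts were 35069136 in WT and 22231389 in miR-146a-/-. Protein-coding genes held 81.4% of the first and 51.5% of the second. The share of the 10 genes together was 0.0736% in WT and 0.0600% in miR-146a-/-. Counts were therefore scaled by TMM, which sets library sizes from the bulk of genes, and levels are given as CPM of the TMM-scaled library size (normalised CPM). Under it the median log2 ratio of miR-146a-/- over WT over all measured genes was -0.01. Of 14 immediate early genes, a class induced quickly by stimulation or by handling of tissue, 14 were called higher in miR-146a-/- by the rule given below. Their median log2 ratio was 2.04, and in normalised CPM they summed to 4635 and 19104, with single genes from 1.46 to 759 and from 15.2 to 3404. None was at 0. Of 5 sex-linked genes, Xist was higher (log2 ratio 3.64) and the 4 Y-linked genes were lower. The part of these features in the results below was not tested.

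The label of the cells was checked against 13 genes of LSK cells, of which 13 were measured and 1, Gata2 (0.97), was called. Kit, the stem cell factor receptor used in the sort, stood at 558 (WT) and 728 (miR-146a-/-) normalised CPM. Ly6a, which encodes Sca-1, had 66.8 and 74.7, and Ly6e, a relative of it, had 692 and 1032. Markers of mature cells were uneven. Of the T and NK cell list, the T cell receptor genes Cd3d, Cd3e and Cd3g and the coreceptor Cd8a had 0 counts in both libraries, while Nkg7 had 34.4 and 31.7 normalised CPM and Lck 22.6 and 15.3. The immunoglobulin heavy chain Ighm stood at 291 and 242 and the light chain Igkc at 82.7 and 38.2. Padi4, from the neutrophil list, had 88.7 and 104.

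In WT cells Pim1 was the most abundant of the 10 genes per length and Socs2 the least. Levels between genes are given per kilobase of merged exons, with 95% Poisson intervals. All intervals here cover counting error alone, as each genotype has 1 library. PCR copies were not told apart by molecular identifiers, and the intervals make no allowance for such copies. Pim1 stood at 83.3 normalised CPM per kilobase (81.9 to 84.7) and Socs3 at 20.6 (19.9 to 21.4). Pim2 followed at 8.55, Socs5 at 6.54, Socs4 at 5.93, Socs7 at 4.85, Cish at 4.25, Socs6 at 2.82 and Socs1 at 1.97. Socs2 stood at 0.815 (0.733 to 0.904). No interval overlapped that of its neighbour in this order; the closest were Socs5 (6.25 to 6.83) and Socs4 (5.67 to 6.21). Pim1 alone held 50.5% of the WT counts of the set (exact binomial interval 49.9 to 51.1%).

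In the miR-146a-/- library the first 3 places and the last 3 were taken by the same genes, while Cish went from place 7 to place 4. Pim1 stood at 143 normalised CPM per kilobase (140 to 146), Socs3 at 37.8 (36.1 to 39.6) and Pim2 at 10.4 (9.54 to 11.4). Cish was at 5.85 (5.40 to 6.33), which overlapped Socs4 at 4.99 (4.59 to 5.42). The intervals of Socs4, Socs5 (4.85) and Socs7 (4.83) overlapped, as did those of Socs6 at 2.65 (2.42 to 2.89) and Socs1 at 2.10 (1.71 to 2.55). Overlap of intervals does not show that levels are equal. Over the longest annotated transcript Socs6 stood at 4.98 (4.55 to 5.43) in this library and Socs1 still at 2.10. Socs2 was again last at 0.427 (0.332 to 0.541). The order in the middle depends on the length used: over the longest annotated transcript, Socs5 in WT stood at 9.02 and Socs6 at 5.31, while Pim1, Socs3 and Pim2 kept the first 3 places and Socs2, at 1.83 (1.65 to 2.03), was lowest but overlapped Socs1 (1.97, 1.74 to 2.22).

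**Figure D1:**
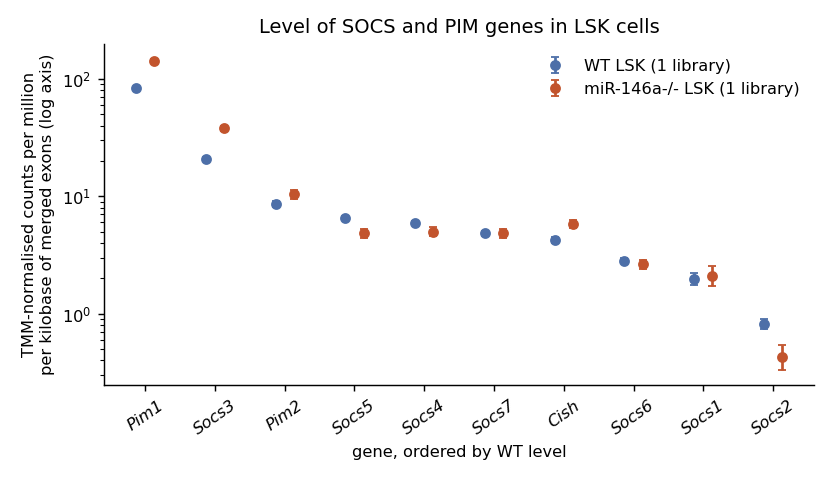
Levels of the 10 genes in the WT (blue) and miR-146a-/- (orange) libraries, as normalised CPM per kilobase of merged exons on a log axis, ordered by WT level. Points are single pooled libraries and bars are 95% Poisson intervals. Pim1 goes from 83.3 to 143 and Socs2 from 0.815 to 0.427.

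Relative to WT, Socs3 and Pim1 were higher in the miR-146a-/- library, Socs2 was about as far lower, and Socs4 to Socs7 lay near or below the middle of all genes. To be called, a gene needed a 95% counting interval of its ratio (exact Clopper-Pearson, converted from the share of counts) that lay wholly past 1.5-fold, or 0.58 on the log2 scale. By this rule 2 of the 10 were higher and 0 lower, where 5.35% of all measured genes were called higher and 1.53% lower. The median log2 ratio of the 10 was 0.04, beside -0.01 for all measured genes, and 5 ratios were positive and 5 negative. In bulk libraries a change in the share of cells that express a gene and a change in RNA per cell cannot be told apart.

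**Figure D2:**
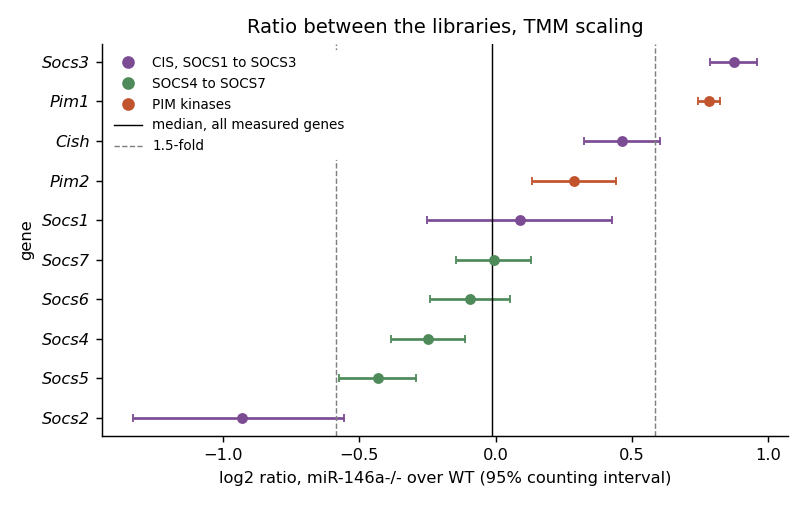
Log2 ratio of miR-146a-/- over WT for each gene under TMM scaling, with 95% counting intervals from 1 library per genotype. Dashed lines mark 1.5-fold and the solid line the median of all measured genes, -0.01. The intervals of Socs3 and Pim1 lie wholly beyond 1.5-fold, and those of Socs2 and Cish cross that line.

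Socs3 encodes the inhibitor that STAT3 induces downstream of gp130 cytokines and the G-CSF receptor, and which binds those receptors to limit signalling. It had 2780 counts in WT and 1828 in the shallower miR-146a-/- library. After scaling these were 59.7 and 109 normalised CPM, with counting intervals of 57.5 to 61.9 and 104 to 114 that do not overlap. The log2 ratio was 0.87 (0.79 to 0.96), or 1.83-fold higher. This placed Socs3 above 95.1% of measured protein-coding genes by ratio. The gene lies on chromosome 11 from 117966079 to 117970047 on the minus strand (mm10) and overlaps no other annotated gene.

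Socs1 encodes the closest relative of SOCS3 in action, the main brake on interferon signalling. It had 267 and 102 counts, or 5.73 and 6.10 normalised CPM, and its intervals of 5.06 to 6.46 and 4.98 to 7.41 overlapped. The log2 ratio was 0.09 (-0.25 to 0.43), so a difference between the libraries was not detectable at this depth, and counting error alone leaves room for 1.34-fold.

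Cish encodes CIS, the STAT5-induced inhibitor that binds receptors such as those of erythropoietin, interleukin 3 and interleukin 2. It had 1270 and 628 counts, or 27.3 and 37.6 normalised CPM, with intervals of 25.8 to 28.8 and 34.7 to 40.6. The miR-146a-/- library was thus higher beyond counting error, at a log2 ratio of 0.46 (0.32 to 0.60), but the interval did not clear 1.5-fold. On the other strand Cish shares exon bases with Gm17041 (479 bases) and Gm17040 (261 bases). Gm17041 had 1 and 0 counts and Gm17040 had 3 and 1.

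Socs2 went the other way. It encodes the inhibitor best known for restraining growth hormone receptor signalling, and it is also a STAT5 target in blood cells. The WT library held 362 Socs2 counts and the miR-146a-/- library 68, or 7.77 and 4.07 normalised CPM, with intervals of 6.99 to 8.61 and 3.16 to 5.16 that do not overlap. The log2 ratio was -0.93 (-1.33 to -0.56), or 1.91-fold lower. The bound nearest to 0 fell just short of 1.5-fold, so the gene was not called, although only 1.77% of measured protein-coding genes had a lower ratio.

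**Figure D3:**
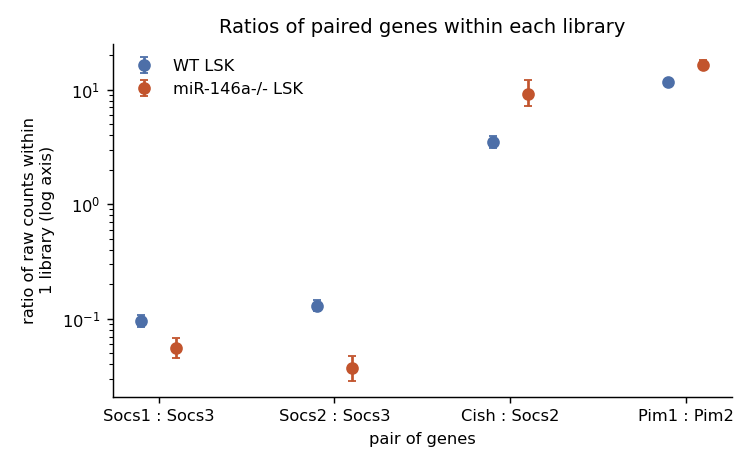
Ratio of raw counts of paired genes within each library (log axis), WT in blue and miR-146a-/- in orange, with exact 95% counting intervals. Socs2 goes from 0.130 to 0.0372 counts per Socs3 count, and Pim1 goes from 11.7 to 16.5 times Pim2.

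Ratios of 2 genes within a library need no scaling between libraries, and 4 pairs were set side by side. There were 0.130 Socs2 counts per Socs3 count in WT and 0.0372 in miR-146a-/-. The balance of Socs2 to Socs3 was therefore 3.50-fold lower (exact conditional interval 2.67 to 4.64). For Socs1 to Socs3 the ratio was 0.0960 in WT and 0.0558 in miR-146a-/-, 1.72-fold lower (1.35 to 2.20). The STAT5 targets Cish and Socs2 also parted, from 3.51 Cish counts per Socs2 count to 9.24, a 2.63-fold change (1.99 to 3.52). Within this family, then, the inhibitors that STAT factors induce did not move as a block between these libraries.

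Socs4, Socs5, Socs6 and Socs7 encode the longer members of the family, with extended N-terminal regions. SOCS4 and SOCS5 are linked to the EGF receptor, SOCS6 to Kit and other receptor tyrosine kinases, and SOCS7 to insulin receptor signalling. Under TMM all 4 ratios were negative and none was called, with a median of -0.17; Socs7 turned slightly positive, to 0.03 at most, by DESeq2 or upper-quartile scaling and with at least 200 summed counts. Socs5 had 1954 and 520 counts, or 41.9 and 31.1 normalised CPM (40.1 to 43.8 and 28.5 to 33.9), a log2 ratio of -0.43 (-0.57 to -0.29). Socs4 had 40.8 and 34.3 normalised CPM, with a log2 ratio of -0.25 (-0.39 to -0.11). Both were lower beyond counting error and within 1.5-fold. By TMM Socs6 (32.0 and 30.0 normalised CPM, -0.09, -0.24 to 0.05) and Socs7 (35.2 and 35.1, -0.01, -0.15 to 0.13) did not differ beyond counting error. By total counts of protein-coding genes both did, at -0.26 (-0.40 to -0.11) and -0.17 (-0.31 to -0.03). So did Socs6 with no filter (-0.16, -0.31 to -0.01) and Socs7 when adjusted for GC content and length (-0.16, -0.30 to -0.02). The levels of Socs4 to Socs7 summed to 150.0 and 131 normalised CPM. Those of Cish and Socs1 to Socs3 summed to 100.4 and 157.

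Pim1, the most abundant of the 10 per length, was higher in the miR-146a-/- library by TMM and made most of the rise in their summed normalised CPM. The WT library held 13045 Pim1 counts and the miR-146a-/- library 8051, or 280.0 and 482 normalised CPM (275 to 285 and 471 to 492). The log2 ratio was 0.78 (0.74 to 0.82), or 1.72-fold higher. An antisense gene, Gm26885, shares 488 exon bases with Pim1 and had 8 and 5 counts. Summed over the 10 genes the level went from 554 to 799 normalised CPM, of which Pim1 made 202 of the difference. Pim1 made 60.3% of the counts of the set in miR-146a-/- (59.5 to 61.2%).

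Pim2 had 1114 and 488 counts, or 23.9 and 29.2 normalised CPM (22.5 to 25.4 and 26.7 to 31.9), with a log2 ratio of 0.29 (0.13 to 0.44). It was higher beyond counting error and not called. Pim2 lies on the X chromosome, and the part in its ratio of the difference in sex-linked genes was not tested. The third kinase of the family, Pim3, had 30.2 and 48.5 normalised CPM and a log2 ratio of 0.68 (0.56 to 0.81), just short of the call. Under TMM all 3 PIM kinases thus had more transcript in the miR-146a-/- library, whereas by total counts Pim1, Pim2 and Pim3 were at -0.04, -0.53 and -0.14. Pim1 counts were 11.7 times those of Pim2 in WT and 16.5 times in miR-146a-/-, a 1.41-fold change (1.26 to 1.58).

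Scaling decides the sign of several of these ratios. By total counts alone, which include the large non-coding share of the miR-146a-/- library, the median of all measured genes was -0.83. Socs3 was then at 0.05, Pim1 at -0.04, neither was called, and 5 of the 10, Socs2 and Socs4 to Socs7, were called lower. In this setting 7077 of all 13880 measured genes were called lower, a share close to that of the 10. By total counts of protein-coding genes, where that median was -0.17, Socs3 (0.71) stayed called, Pim1 (0.62) did not, and Socs2 (-1.09) was called lower. Taken relative to the median of all genes under the same setting, Socs3 lay between 0.87 and 0.92 in all 10 settings, Pim1 between 0.77 and 0.83, and Socs2 between -0.94 and -0.89. For settings that only rescale the libraries this near constancy holds by construction.

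**Figure D4:**
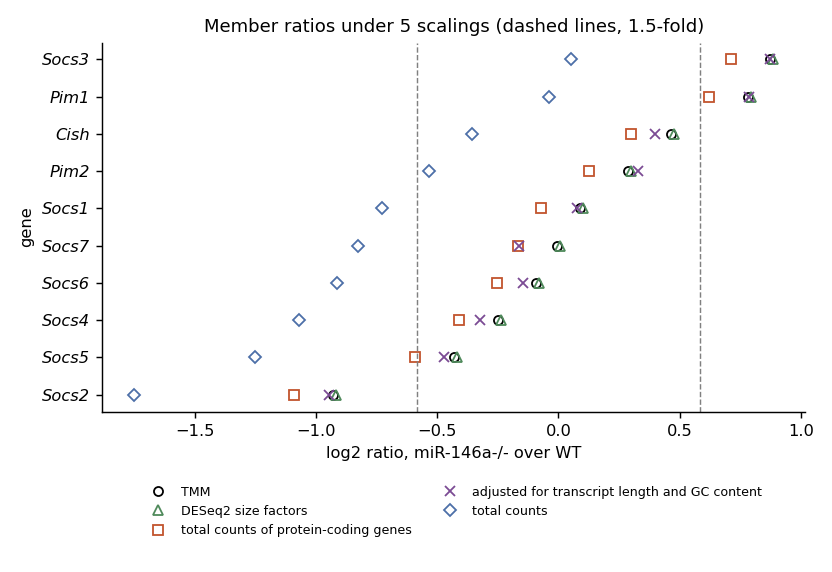
Log2 ratio of each gene under TMM and 4 other treatments of the counts, 1 symbol per treatment; dashed lines mark 1.5-fold. Total counts (diamonds) shift every gene to the left, Socs3 from 0.87 to 0.05, and the order of the genes stays nearly the same.

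The genes that feed the loop were read from lists of the pathway. For comparison with the list counts below, 5.35% of all measured genes were called higher by TMM and 1.53% lower. Among ligands of JAK-coupled receptors 7 of 17 were measured, 2 of them higher and 0 lower; the median was 0.32. These were the anti-inflammatory cytokine Il10 (65 and 165 counts, log2 ratio 2.81, 2.40 to 3.26) and the gp130 ligand Lif (1.22, 1.03 to 1.41). By total counts Il10 alone was called higher and Il15 lower. The lowest were Ctf1, another gp130 ligand, at -0.31 (-1.07 to 0.39) and Il7 at -0.23 (-0.84 to 0.34), neither beyond counting error. Il3 and Thpo had 0 counts in both libraries. Of 25 measured receptors 1 was higher and 0 lower, and the median was 0.05. That gene was Csf2rb2, a beta chain of the interleukin 3 receptor (608 and 493 counts, log2 ratio 1.18). Csf2ra was next at 0.67, while Il7r (-0.79, -1.49 to -0.15) and Lifr (-0.47, -1.04 to 0.07) were at the lower end. Csf2rb2 has a close paralog, Csf2rb, so its count is uncertain. By total counts 0 receptors were higher and 12 lower, at a median of -0.77, where 7077 of all 13880 measured genes were lower.

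Among JAK kinases and STAT factors Stat2, which acts downstream of type I interferon receptors, was at 0.61 by TMM and not called, and Tyk2 and Jak3 were lowest at -0.42 and 0.08. Receptor tyrosine kinases that SOCS proteins restrain had 0 of 6 called and a median of 0.49 (by total counts Flt3 and Pdgfrb were called lower and the median was -0.33; Igf1r was called higher with at least 200 summed counts), from Csf1r (0.72) and Igf1r (0.63) down to Pdgfrb (0.08) and Flt3 (-0.23). Of the 8 subunits and cofactors of the ubiquitin ligase that the SOCS box recruits, 0 were called by TMM, with 8 negative ratios and a median of -0.40. By total counts 8 were called lower, and by total counts of protein-coding genes 2, Rbx1 and Nedd8. The median was -0.29 when adjusted for GC content and length. The RING protein Rbx1 and the modifier Nedd8 were the lowest at -0.66 and -0.65, and the scaffold Cul5 (-0.17) and the conjugating enzyme Ube2f (-0.15) the highest. Of the other brakes on cytokine signalling (phosphatases, PIAS proteins and adaptors) 1 of 18 was higher and 0 lower, and the median was 0.04. The ubiquitin ligase Cblb was at 0.72 (0.61 to 0.83) and Cbl at 0.41, and Dok2 and Sh2b2 were at -0.48 and -0.41. Cblb was not called by either kind of total count, with no filter, with the adjustment for GC content and length or at 2-fold. By total counts 12 of the 18 were lower, where 7077 of all 13880 measured genes were lower.

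**Figure D5:**
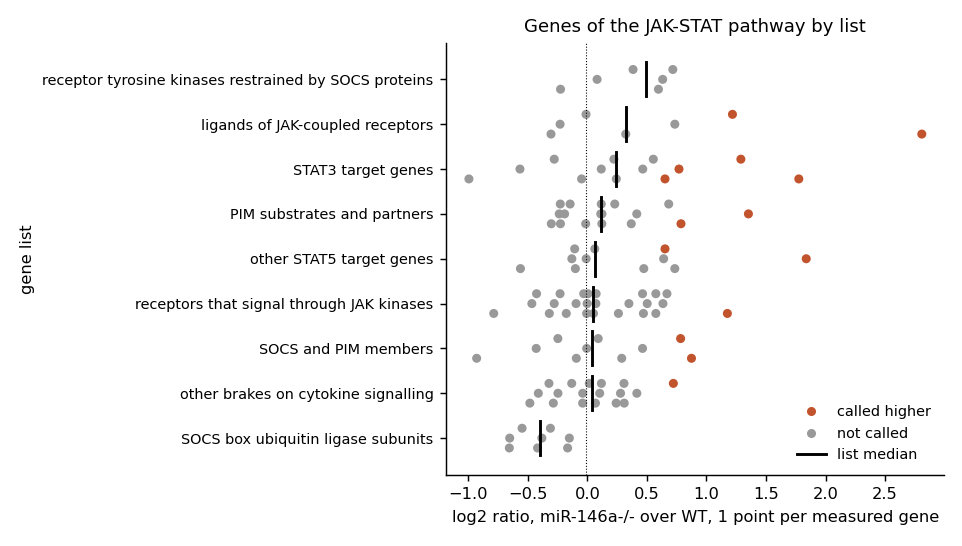
Log2 ratio of miR-146a-/- over WT for each measured gene of the pathway lists plotted and of the SOCS and PIM set, 1 point per gene, orange where called higher. Black bars are list medians, from -0.40 for ligase subunits to 0.49 for receptor tyrosine kinases, and the dotted line is the median of all measured genes.

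Targets of STAT3 and STAT5 were read in the same way. Of 13 measured STAT3 targets 4 were called higher and 0 lower; the median was 0.24. Fos (1.78) and Junb (1.29), both also in the immediate early list, led the called genes, with Icam1 (0.77) and Mcl1 (0.65) after them. Birc5 (-0.57, -0.87 to -0.28) and Lcn2 (73 and 13 counts, -0.996, -1.99 to -0.15) were lowest. By total counts of protein-coding genes and at 2-fold, Fos and Junb were the 2 called; by total counts 1, Fos, was higher and 5 were lower. Of 11 measured STAT5 targets outside the set, Id1 (79 and 102 counts, 1.84) and Mcl1 were called higher and 0 lower, and the median was 0.06. The interleukin 6 relative Osm (0.73, 0.48 to 0.99) was also at the upper end, and Ccnd1 (-0.56) and Gfi1 (-0.13, -0.29 to 0.02) at the lower. Mcl1 is in both lists. By total counts of protein-coding genes Id1 was higher and Ccnd1 lower. By total counts Id1 was higher and 6 of the 11 were lower, where 7077 of all 13880 measured genes were lower.

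For substrates and partners of PIM kinases, 2 of 17 were higher and 0 lower; the median was 0.12. Both were cell cycle inhibitors that PIM kinases phosphorylate, Cdkn1a, which encodes p21 (44.3 and 113 normalised CPM, 1.35, 1.26 to 1.44), and Cdkn1b, which encodes p27 (53.9 and 93.0, 0.79, 0.69 to 0.88). By total counts of protein-coding genes and at 2-fold only Cdkn1a was called. By total counts 0 were higher and 9 lower, at a median of -0.71, where 7077 of all 13880 measured genes were lower. The lowest were Eif4ebp1 (-0.30, -0.45 to -0.16) and the death agonist Bad (-0.24, -0.53 to 0.05).

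The microRNA that the miR-146a-/- mice lack is shown with its relative miR-146b, since both carry the same seed (bases 2 to 8, in capitals), from RefSeq.
miR-146a-5p: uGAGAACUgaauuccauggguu
miR-146b-5p: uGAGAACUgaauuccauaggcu

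The matching site, AGTTCTC, was looked for in 3' untranslated regions, taking for each gene the longest one annotated. It occurred in 2 of the 10 genes, Socs6 and Socs7, with 1 match each, where 12.6% of 12249 measured protein-coding genes had at least 1. That share was not matched for length. The regions of Socs6 and Socs7 have 4019 and 5184 bases, beside a median of 1177, and longer regions leave more room for a match. The Socs7 site lies at bases 722 to 728 of 5184 and reads as follows, with the match in capitals.
Socs7 site: gcaaacccAGTTCTCcctgccct

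By TMM neither Socs6 (-0.09) nor Socs7 (-0.01) differed between the libraries beyond counting error. By total counts of protein-coding genes both were lower beyond it, at -0.26 and -0.17. Socs3 and Pim1, which were called higher by TMM, carried no 7-base match. The pentamer ATTTA of AU-rich elements, which shorten the life of many induced messages, was denser than the median of all genes (1.30 per kilobase) in 8 of the 10, from 1.33 per kilobase in Cish to 3.66 in Pim1. Socs7 had 0.964 per kilobase and Socs1 none. The longer core TTATTTATT, a motif chosen after the files were seen, was in 2 of the 10, with 3 overlapping copies in Pim1 and 2 in Cish, where 8.11% of genes had at least 1. A copy from each is shown with its flanks, the core in capitals.
Pim1 site: gtatttatTTATTTATTtatttggt
Cish site: tacagtatTTATTTATTtattctcc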

How the data were processed

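Libraries were made from total RNA freed of ribosomal RNA, per the labels. The authors deposited raw read counts, as whole numbers per Ensembl gene and without normalisation. Per the file headers, junction reads were placed on the genome and duplicates flagged. STAR 2.5.3a, Salmon 0.9.0 and mm10 are listed in the submitters' processing notes, with no role. The counting program, annotation and strand use are not stated there, so reads of antisense genes cannot be separated.

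Symbols, lengths and 3' untranslated regions came from GENCODE M21 (mm10), which named 37693 of 39017 identifiers; promoters and microRNAs came from RefSeq. TMM factors were computed over measured genes (edgeR 4.0.16 under R 4.3.3); no edgeR test can be run on 1 library per group. Log2 ratios used a prior count of 0.5, and intervals were computed in Python 3.11.15 with scipy 1.17.1. The interval code was tested on simulated data. Alternatives were DESeq2 1.42.0 size factors, upper-quartile, total and protein-coding total scaling, a minimum of 200 summed counts or none, a prior count of 5, a 2-fold threshold and a spline fit on GC content and transcript length. The members, and the lists of pathway genes and markers, were chosen with earlier results of these data known. Named genes were all members, Pim3, the 2 highest and 2 lowest measured genes of each pathway list and the 2 most abundant of each list of other cell types; any other gene was named after its values were seen, such as those at 0 counts. Protein sequences were not analysed here. Some listed genes and lists are not reported here.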

Additional observations from a re-analysis of the deposited data

How the results depend on the processing

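No paired analysis was possible because each genotype has 1 library, and for the same reason no replicate could be left out. DESeq2 size factors, upper-quartile scaling and a prior count of 5 left the count of SOCS and PIM genes called at 2 higher and 0 lower. By total counts 0 were higher and 5 lower, the median of the 10 was -0.78 and Pim1 was at -0.0387; over all measured genes 140 were higher and 7077 lower, against 742 and 212 by TMM. By total counts of protein-coding genes 1 of the 10 was higher and 1 lower, and of all measured genes 496 were higher and 574 lower. With no filter 2 of the 10 were higher and 1 (Socs2, -0.998) lower. Of all genes 740 were then higher and 322 lower, out of more genes than the 13880 measured. A 2-fold threshold, stricter by construction, called 0 of the 10 higher, and 294 higher and 42 lower of all. With at least 200 summed counts, which tests fewer genes, 491 were higher and 130 lower. The adjustment for transcript length and GC content gave 485 higher and 168 lower. Both of these settings left the 10 at 2 higher and 0 lower. For the filters' effect on scaling and for the adjustment the cause was not tested. Depth limits Socs1 and Socs2 most, at 102 and 68 counts in the miR-146a-/- library.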

Other observations

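Cish is 1 of 46 measured protein-coding genes whose RefSeq promoter window held 2 or more matches to TTCNNNGAA. Of these 46 genes 0 were called higher and 0 lower, and their median log2 ratio was -0.06. Socs3 is 1 of 755 with a single match, of which 46 were higher and 9 lower; the median was -0.02. Genes with 0 matches, such as Socs1 and Pim1, numbered 8934, of which 351 were higher and 128 lower; the median was -0.03. For the interferon regulatory factor motif marked in Socs1, a choice made after the values were seen, 35 genes held 2 or more matches, Socs1 among them, 7 of them called higher and 0 lower (median log2 ratio 0.45). With 1 match there were 340 genes, 25 higher and 3 lower, at a median of 0.06, and with 0 matches 9360 genes, 365 higher and 134 lower, at -0.04. For the NF-kB consensus the counts were 164 genes with 2 or more matches, 20 higher and 2 lower (median 0.10), 1034 with 1, 54 higher and 12 lower, and 8537 with 0, 323 higher and 123 lower. Of 23 genes with 2 or more of the form that STAT6 prefers, 0 were higher and 1 lower.

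Markers of other cell types that the sort could hold did not share 1 direction. Over all measured genes 5.35% were called higher by TMM and 1.53% lower. Of 10 measured neutrophil markers 0 were higher and 3, Ltf, Ngp and S100a9, lower, with Padi4 at 0.23 and Ngp at -1.38 the most abundant; their normalised CPM summed to 105 and 112 with Padi4 and, over the other 11 listed genes, to 16.3 and 8.20. For monocytes and macrophages 2 of 11, F13a1 and Ms4a6c, were higher and 0 lower, with Lyz2 at -0.29 and Ms4a6c at 0.88. Of 5 B and plasma cell markers 0 were higher and 2, Igkc and Jchain, lower, with Ighm at -0.27 and Igkc at -1.11. Of 6 T and NK cell markers 3, Cd4, Cd247 and Gzmb, were higher and 0 lower, with Nkg7 at -0.12 and Lck at -0.57. None of 6 erythroid, 5 mast cell and basophil, and 5 stromal and endothelial markers was called. Of the erythroid ratios 5 of 6 were positive (median 0.60), with Gfi1b at 0.30 and Hbb-bt at -0.71 (78 and 17 counts, -1.57 to 0.05). All 5 mast cell and basophil ratios were positive (median 0.67), with Il3ra at 0.47 and Cpa3 at 0.67. In the stromal and endothelial list 4 of 5 were positive (median 0.48), with Pecam1 at 0.48 and Pdgfrb at 0.08. The part of these cells in the ratios of Socs3, Pim1 and Socs2 was not tested.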
